A study of Sus scrofa with 9 samples.

Results

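Cytotoxic lymphocytes kill with the contents of secretory granules and with death ligands, and 9 genes of this machinery were followed in sorted T cells of sows. They were the granzymes GZMA, GZMB and GZMH, the pore protein perforin (PRF1), granulysin (GNLY), the Fas ligand (FASLG), the granule proteoglycan serglycin (SRGN), the lysosomal membrane protein LAMP1 and cathepsin C (CTSC), which activates granzymes. The members were taken by name, as all probes whose accession belongs to these genes in the pig annotation. This gave 8 probes for 5 genes, out of 3052 genes named on the array. GZMA, GZMB and GZMH had a pair of probes each, and FASLG and LAMP1 had 1 probe each. No probe was matched to PRF1, GNLY, SRGN or CTSC, which were not analysed here.

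In killing by granules, perforin opens a way into the target cell and granzymes, which are serine proteases, enter and cut proteins that start cell death. Serglycin holds the granzymes in the granule, and LAMP1 lines its membrane and reaches the cell surface when granules fuse with it. The Fas ligand acts from outside, through the receptor FAS and the caspases behind it. Pig blood regularly holds T cells with CD4 and CD8 on the same cell, and activated and memory helper cells are among them.

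Mononuclear cells from the blood of sows had been separated on Percoll and sorted into 3 fractions, CD3+CD4+CD8+ (DP), CD3+CD4+ (called CD4 cells here) and CD3+CD8+ (CD8 cells). Each fraction was measured on 3 arrays, 9 in all, described as biological replicates. No treatment is labelled, and the sources used here do not give the sows' age or number or the purity of the sorts. The gates are labelled only by the markers that the cells carry, and in pigs CD8 is also found on part of the T cells with a gamma delta receptor. Levels are log2 of the signal relative to the 75th percentile of the same array, so 1 unit is a doubling of signal within a probe. Levels of different probes are not comparable, because probes bind with different strength.

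The labelled sorts were checked first. CD8A, the alpha chain of the CD8 coreceptor, stood at 3.47 ± 0.76 in DP, 0.27 ± 0.67 in CD4 cells and 5.35 ± 0.57 in CD8 cells (mean ± SD, n = 3 arrays each). CD8A was well above background on all 9 arrays, with levels of 0.29, 0.94 and -0.40 on CD4 arrays 1, 2 and 3. CD4, the helper coreceptor, was well above background on each DP array and each CD4 array and on 1 of 3 CD8 arrays. The 75th percentile of signal ran from 15.2 to 84.1, and 32.6% to 53.7% of probes were well above background, so arrays differed in brightness within and between fractions. Arrays of 1 fraction correlated at r of 0.854 or more over the tested probes, and no array was a copy of another (highest r = 0.948). The arrays lay on 3 slides, of which slide 1 held DP array 1 alone.

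GZMH was the member that set the fractions apart most clearly, with DP between the other fractions. By probe A_72_P302439 its level was 4.31, 3.18 and 3.01 on DP arrays 1, 2 and 3. CD4 cells had 0.07, 2.14 and 0.71, and CD8 cells had 4.53, 6.56 and 5.25. Every DP array lay above every CD4 array and below every CD8 array, although the gap between DP array 1 and CD8 array 1 was small. By probe A_72_P478010 the level was 3.94, 3.29 and 2.92 in DP, -0.39, 3.49 and 0.59 in CD4 cells and 4.12, 6.65 and 4.55 in CD8 cells. Here CD4 array 2 overlapped the DP arrays, while the CD8 arrays again lay above all others. Both probes were well above background on all 9 arrays, with signals from 43.3 to 2441, so GZMH transcript was measured in the CD4 fraction too. CD8A was also well above background on the CD4 arrays, and the part of cells carrying CD8A in this GZMH signal was not tested. In bulk samples such as these, fewer cells with the transcript and less transcript per cell cannot be told apart.

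GZMH was 22.2-fold lower in CD4 cells than in CD8 cells (log2 -4.47, SE 0.62, probe A_72_P302439, n = 3 per fraction, limma adjusted p = 0.00661). The second probe, A_72_P478010, gave -3.88 (SE 0.86) and did not pass (adjusted p = 0.102), but it passed without the filter on dim probes (adjusted p = 0.0012). Without CD4 array 2 it gave -5.01 and passed (adjusted p = 0.0174, range with 1 array left out 0.0174 to 0.490). With the labelled replicate number as a block it passed too (adjusted p = 0.0249), but not with another numbering of the CD8 arrays (adjusted p = 0.143). The second probe passed in no other setting, with an adjusted p of 0.254 under normexp background correction and 0.219 under a slide block. Between DP and CD4 cells the first probe gave 2.53 (SE 0.62, 5.77-fold, 95% interval 1.19 to 3.86) and the second 2.16 (SE 0.86, 4.46-fold, interval 0.29 to 4.02). Neither passed after adjustment over all probes (adjusted p = 0.147 and 0.773), although the first did without the filter on dim probes (adjusted p = 0.0188). Between DP and CD8 cells the differences were -1.95 (SE 0.62, interval -3.28 to -0.61) and -1.72 (SE 0.86, interval -3.59 to 0.14), which did not pass either (adjusted p = 0.401 and 0.824).

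The call between CD4 and CD8 cells held with each array left out in turn (adjusted p from 0.00405 to 0.0383) but not with another background correction (normexp, adjusted p = 0.0597). Within slides 2 and 3, which held all 3 fractions, the first probe gave 1.04 and 2.62 for DP minus CD4 and -2.37 and -2.24 for DP minus CD8, whereas the second probe gave -0.19 for DP minus CD4 within slide 2.

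**Figure D1:**
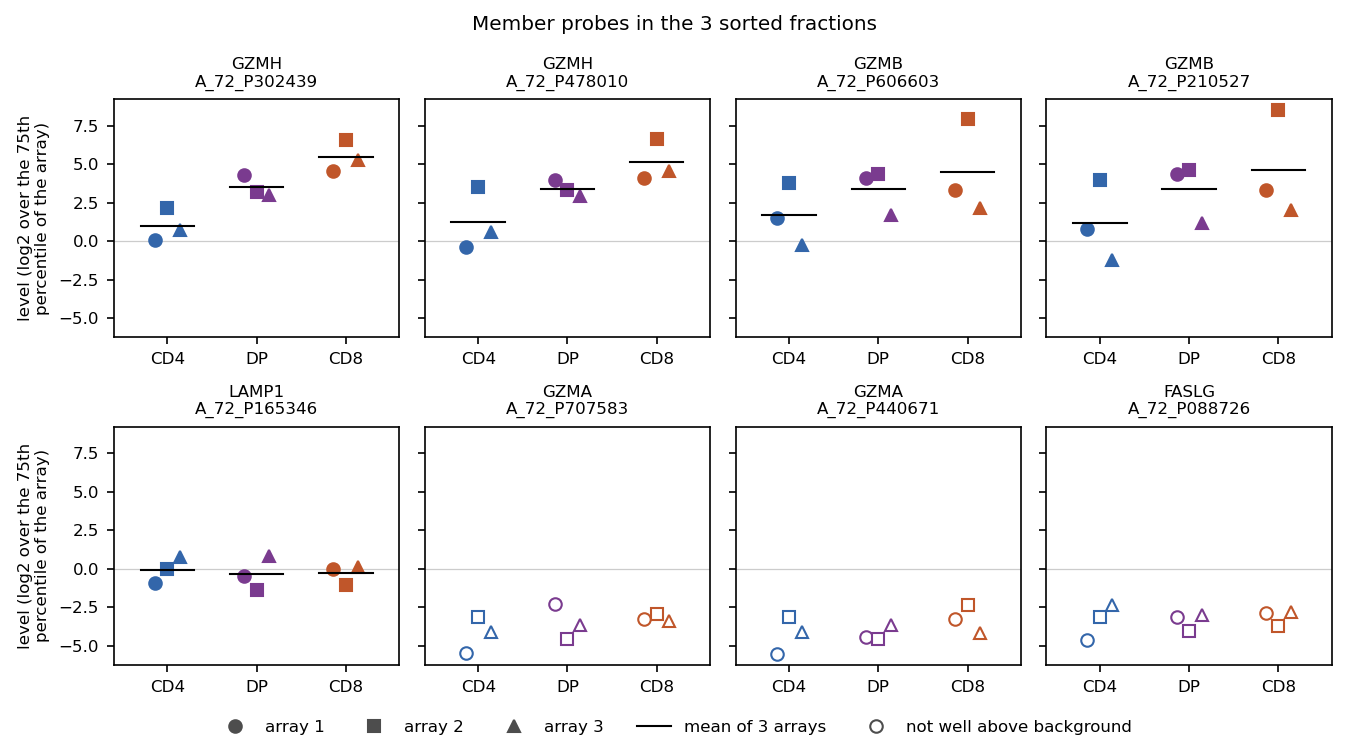
Level of each of the 8 member probes (log2 over the 75th percentile of the array) on the 9 arrays, by sorted fraction, with the mean of 3 arrays as a line for tested probes and open symbols for signals not well above background. The GZMH means are lowest in CD4 cells and highest in CD8 cells, GZMB spreads widely within each fraction, the LAMP1 fractions overlap, and GZMA and FASLG stay near background.

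GZMB, the granzyme best known for cutting caspases in target cells, was well above background on all 9 arrays, but its level varied widely between the arrays of each fraction. By probe A_72_P606603 it stood at 4.07, 4.33 and 1.69 on DP arrays 1, 2 and 3. The CD4 arrays gave 1.47, 3.74 and -0.22, and the CD8 arrays 3.33, 7.91 and 2.14. Array 2 was the highest and array 3 the lowest in each fraction, and all 3 fractions overlapped. Of all tested probes 5.42% had array 2 highest in all 3 fractions, and 1.72% also had array 3 lowest in all 3. Probe A_72_P210527 gave the same picture, with 4.38, 4.61 and 1.17 in DP, 0.80, 3.97 and -1.22 in CD4 cells and 3.30, 8.52 and 2.01 in CD8 cells. The probes of GZMB moved together over the 9 arrays (r = 0.998, a description), as did those of GZMH (r = 0.960), for which the largest gap after centring, 1.41, was on CD4 array 2.

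GZMB differed by 1.70 (SE 1.30, interval -1.12 to 4.52) and 2.20 (SE 1.56) between DP and CD4 cells, and by -1.09 (SE 1.30, interval -3.91 to 1.73) and -1.22 (SE 1.56) between DP and CD8 cells. Between CD4 and CD8 cells it differed by -2.80 (SE 1.30) and -3.43 (SE 1.56). None of these passed (limma adjusted p of 0.999 or more for each), and the intervals leave room for differences as large as those of GZMH. A single array set the direction against CD8 cells: without CD8 array 2, DP minus CD8 was 0.63 and 0.74. Within slides 2 and 3 probe A_72_P606603 gave 0.59 and 1.07 for DP minus CD4 and -1.28 and -0.45 for DP minus CD8.

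The spread of GZMB between arrays of a fraction was among the widest on the array. Its SD within fractions, pooled over the 3 fractions, was 2.26 and 2.74 for its probes, where the median tested probe had 0.624. Of all 16024 tested probes, 99.8% and 99.98% had a smaller SD. GZMH had 0.947 and 1.43, wider than 81.2% and 96.7% of tested probes, and LAMP1 had 0.883, wider than 77.0%. The levels of the sorting marker CD8A (SD 0.57 to 0.76 by fraction) and of CD3E, a CD3 chain (SD 0.43 to 0.72), spread less than those of GZMB on the same arrays.

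**Figure D2:**
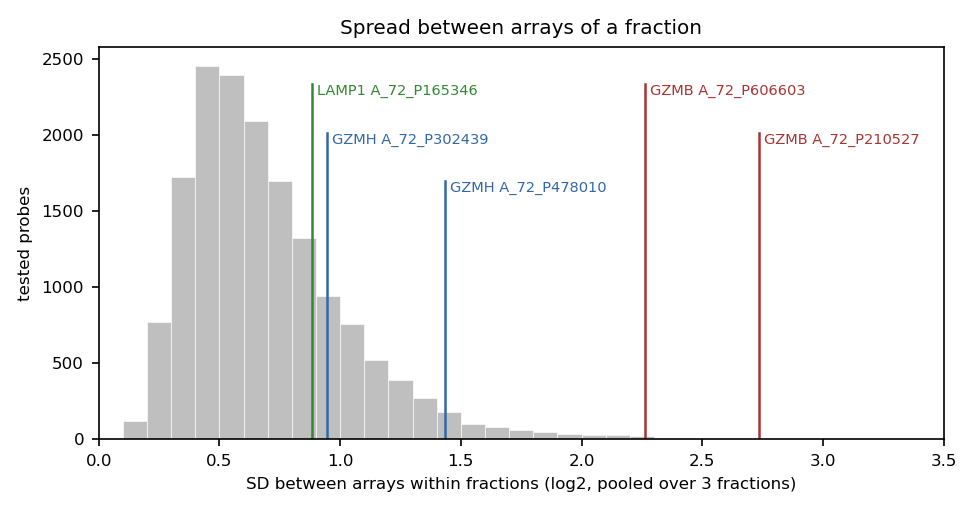
Number of tested probes (vertical axis) by their SD between arrays within fractions (horizontal axis, log2), with the 5 tested member probes as vertical lines. The GZMB probes lie at 2.26 and 2.74, in the far tail, while the median tested probe has 0.624.

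LAMP1, the granule and lysosome membrane protein, was measured at low signal (12.0 to 48.8). Its level was -0.49, -1.35 and 0.82 in DP, -0.95, -0.02 and 0.76 in CD4 cells and 0.01, -1.02 and 0.14 in CD8 cells. Its signal passed background on all 9 arrays and the fractions overlapped. The differences were -0.27 (SE 0.64, interval -1.66 to 1.12) between DP and CD4 cells, -0.06 (SE 0.64, interval -1.45 to 1.34) between DP and CD8 cells and 0.22 (SE 0.64) between CD4 and CD8 cells. None passed (limma adjusted p of 0.999 or more for each), and each changed sign when single arrays were left out. LAMP1 is found in lysosomes of all cells, so its transcript is not specific to cytotoxic granules.

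GZMA, a granzyme that acts without caspases, and FASLG were not well above background on any of the 9 arrays, in any fraction. The GZMA probes had signals from 1.53 to 8.11 and the FASLG probe from 1.77 to 5.58, where the lowest signal called well above background was 6.86 to 9.43 on the 9 arrays. These 3 probes were therefore not tested, their values have no order, and no fold is given. The annotation has 2 entries named GZMA, and both probes carry the accession of 1 of them.

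Of the 5 differences 4, 0 and 1 were above 0 in DP minus CD4, DP minus CD8 and CD4 minus CD8, where 47.7%, 47.7% and 48.8% of all tested probes were. Across the 5 tested member probes and the 3 comparisons, 15 tests, 1 was called, GZMH in CD4 against CD8 cells. Between DP and CD4 cells 0 of 5 were called by limma and 2 had an unadjusted p under 0.05, where 0.293% of all tested probes were called and 4.84% had such a p. Between DP and CD8 cells 0 of 5 were called and 1 had an unadjusted p under 0.05, beside 0.312% and 6.52% of all tested probes. Between CD4 and CD8 cells 1 of 5 was called and 3 had an unadjusted p under 0.05, beside 0.437% and 4.54%. The ranges of DP and CD4 cells did not overlap, with DP higher, for 1 of the 5, beside 5.22% of all probes. DP lay wholly below CD8 cells for both GZMH probes, beside 5.2% of all probes, and CD4 cells lay wholly below CD8 cells for both, beside 4.24%. The probes of a gene are not independent of each other.

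As a description of how far DP carried the granzymes, the mean of DP was placed on the log2 path from the CD4 mean (0%) to the CD8 mean (100%). A position on this path counts doublings of signal and is not a share of the transcript amount. GZMH of DP lay at 56.5% and 55.6% of that path by its probes, and with 1 array left out in turn at 47.5% to 64.6% and 43.9% to 69.4%. GZMB of DP lay at 60.9% and 64.3%, but from 41.0% to 159% and 45.0% to 150% with 1 array left out, the highest values being those without CD8 array 2. LAMP1 was given no position, since its CD4 and CD8 means lay less than 1 log2 unit apart.

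**Figure D3:**
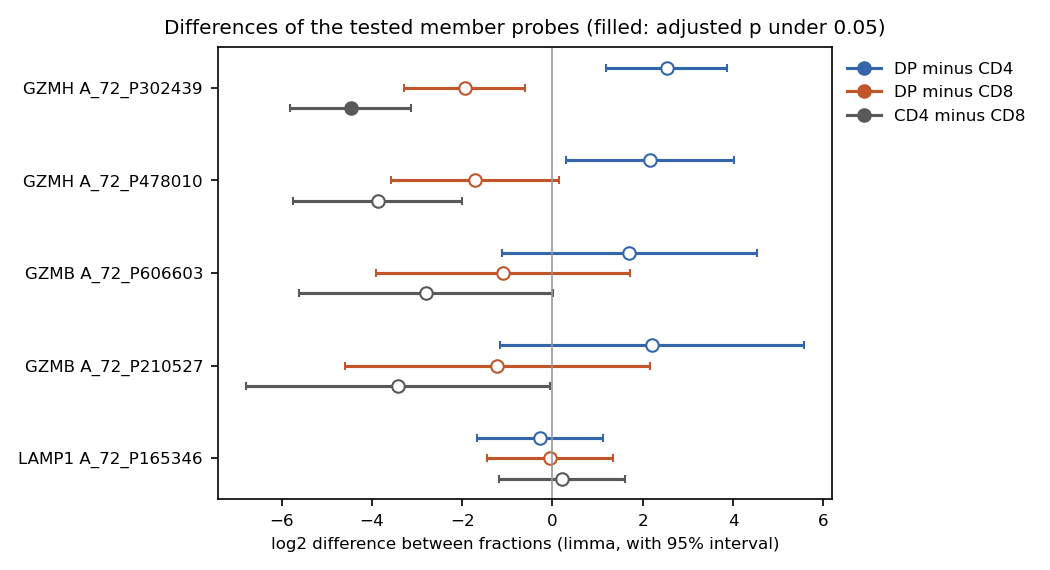
Log2 difference between fractions (horizontal axis, point, with its 95% interval from limma) for the 5 tested member probes and 3 comparisons. Filled points passed at an adjusted p under 0.05, which only GZMH by A_72_P302439 did, in CD4 minus CD8, while the intervals of GZMB span several log2 units.

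Other genes of the killing pathway were read from 5 lists with 75 genes, of which 39 were on the array by name and 32 were tested, each by its probe with the highest mean. By limma none of the 32 was called in any comparison, beside the 0.293%, 0.312% and 0.437% of all tested probes given above. At an unadjusted p under 0.05 there were 5 between DP and CD4 cells, 4 between DP and CD8 cells and 3 between CD4 and CD8 cells. Of all tested probes 4.84%, 6.52% and 4.54% had such a p. The median difference over the 32 was 0.30, 0.10 and -0.07 in these comparisons, beside -0.02, -0.03 and -0.01 over all tested probes.

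In the list of granule proteases, their activators and inhibitors 8 genes were tested, with a median difference of 0.69 between DP and CD4 cells, 0.31 between DP and CD8 cells and -0.55 between CD4 and CD8 cells. GZMK, a granzyme of memory T cells, lies near GZMA in the annotation. Its level was 0.23, 2.55 and -0.91 in DP, -4.05, -0.37 and -4.11 in CD4 cells and -1.19, 1.73 and -1.16 in CD8 cells. It passed background on 3 DP arrays, 1 CD4 array and 2 CD8 arrays. DP minus CD4 was 3.46 (SE 1.14, adjusted p = 0.463) and DP minus CD8 was 0.83 (SE 1.14, interval -1.63 to 3.29). In the first of these 2 of the 3 CD4 arrays were not well above background, so its size is uncertain, and with normexp background correction it was 1.102.

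GZMM, a further granzyme of killer lymphocytes, stood at 0.54 ± 1.02 in DP, -0.18 ± 1.49 in CD4 cells and 1.51 ± 0.33 in CD8 cells (n = 3 arrays each). It passed background on 3, 2 and 3 arrays of them, and CD4 minus CD8 was -1.68 (SE 0.70, adjusted p = 0.968). CTSB, a lysosomal protease, had the smallest p of the list between DP and CD8 cells, at 0.93 (SE 0.41, adjusted p = 0.740). The means of GZMH, GZMB and GZMM were lowest in CD4 cells, then DP, then CD8 cells, whereas for GZMK the DP mean was the highest. GZMK was tested only because it passed background on all 3 DP arrays, a filter that favours genes high in DP. Without DP array 2 its DP minus CD8 was -0.13. None of the granzyme steps next to DP passed in the fit without a block and with the filter on dim probes (limma). Without that filter GZMH by A_72_P302439 passed for DP minus CD4 (limma adjusted p = 0.0188). With the labelled replicate number as a block GZMK passed for DP minus CD4 (limma adjusted p = 0.00808). This p rests on CD4 arrays of which only 1 was well above background for GZMK. GZMK did not pass there with another numbering of the CD8 arrays (limma adjusted p = 0.409). Nor did it with normexp background correction and no block (limma adjusted p = 0.837).

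Among granule membrane and lysosome genes 9 were tested, with medians of 0.24, 0.09 and -0.01 in the 3 comparisons. NKG7, a membrane protein of cytotoxic granules, stood at 3.27, 2.32 and 1.57 in DP, 1.27, 0.48 and 0.60 in CD4 cells and 3.45, 2.62 and 2.42 in CD8 cells. Its DP arrays all lay above the CD4 arrays, as for 5.22% of all tested probes, and overlapped the CD8 arrays. DP minus CD4 was 1.60 (SE 0.49, adjusted p = 0.360), DP minus CD8 was -0.45 (SE 0.49) and CD4 minus CD8 was -2.05 (SE 0.49, adjusted p = 0.151). CALR, a calcium binding chaperone that is also held in granules, gave 0.67 (SE 0.41) for DP minus CD8. LAMP2, the sister of LAMP1, was among the genes tested and had the lowest DP minus CD4 of the list, -0.28.

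Of the genes for granule transport and release 4 were on the array and 3 were tested, with differences from -0.37 to 1.13 against DP. RAB27A, a GTPase needed for docking of granules, gave 0.40 (SE 0.56) for DP minus CD4 and 1.13 (SE 0.56, adjusted p = 0.813) for DP minus CD8. AP3B1, an adaptor subunit for sorting to lysosomes, gave 0.41 (SE 0.44) for DP minus CD4. STX11, a syntaxin of granule fusion, was well above background on 1 array and was not tested.

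In the list of death ligands, receptors and caspases 8 of 13 genes on the array were tested, with medians of 0.27, 0.29 and -0.03. While the ligand FASLG was not well above background, its receptor FAS had its highest levels in DP. FAS stood at 2.45, 2.41 and 2.02 in DP, -0.20, 0.38 and -0.52 in CD4 cells and 1.24, 1.05 and -0.83 in CD8 cells. Every DP array lay above every array of the other fractions, which overlapped each other. For 5.22% of all tested probes DP lay wholly above CD4 cells, and the share wholly above CD8 cells is not given here. FAS gave 2.40 (SE 0.55, 5.29-fold, adjusted p = 0.107) for DP minus CD4 and 1.80 (SE 0.55, adjusted p = 0.335) for DP minus CD8, and neither passed. Its other tested probe was well above background on no CD4 or CD8 array, so the size of its differences is uncertain. That probe was tested only because it passed background on all 3 DP arrays. This filter favours probes that are high in DP, so the probe is no separate support for FAS being higher there. Signals under the lowest one well above background on their array were raised to it. FAS by that probe was then 3.91-fold higher in DP than in CD4 cells and 2.74-fold higher than in CD8 cells. These are estimates and not bounds. In the fit on measured values the intervals began at 1.65-fold and 1.34-fold, and neither difference passed (limma adjusted p = 0.336 and 0.518). The first probe passed for DP minus CD4 without CD8 array 3 (adjusted p = 0.0327, range with 1 array left out 0.0327 to 0.465).

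TNF, a death ligand and inflammatory cytokine, was picked out here after its values were seen. It stood at 3.73, 2.76 and 2.02 in DP, 1.01, 0.60 and -0.14 in CD4 cells and 3.15, -0.998 and -0.48 in CD8 cells. DP minus CD4 was 2.35 (SE 0.88, adjusted p = 0.651) and DP minus CD8 was 2.28 (SE 0.88, adjusted p = 0.615), with CD8 array 1 inside the DP range. The other tested TNF probe gave 2.31 (SE 0.59, limma adjusted p = 0.177) and 1.85 (SE 0.59, limma adjusted p = 0.409), and neither passed. By that probe every DP array lay above every CD4 and CD8 array. DP lay wholly above CD4 cells for 5.22% of all tested probes. Without CD8 array 1, DP minus CD8 of the first TNF probe was 3.57 and passed (adjusted p = 0.0463, range with 1 array left out 0.0463 to 0.99998). TNFSF10, the ligand TRAIL, was tested and not called, and TNFRSF1B, a receptor of TNF, was not well above background on any array.

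Regulators of the cytotoxic programme were thinly covered, with 4 of 13 genes on the array by name, all 4 tested, and medians of -0.18, -0.71 and -0.36. LEF1, which is active in T cells that have not met antigen, had its lowest levels in DP. It stood at 6.68, 6.71 and 7.19 in DP, 7.80, 8.71 and 8.43 in CD4 cells and 7.90, 8.66 and 7.96 in CD8 cells, with no overlap between DP and either of the others, also by its other probes (3 tested). For 5.2% of all tested probes DP lay wholly below CD8 cells, and the share wholly below CD4 cells is not given here. LEF1 gave -1.45 (SE 0.35, adjusted p = 0.147) for DP minus CD4 and -1.31 (SE 0.35, adjusted p = 0.226) for DP minus CD8. ID2, a regulator of effector cells, gave -0.86 (SE 0.52) for CD4 minus CD8.

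**Figure D4:**
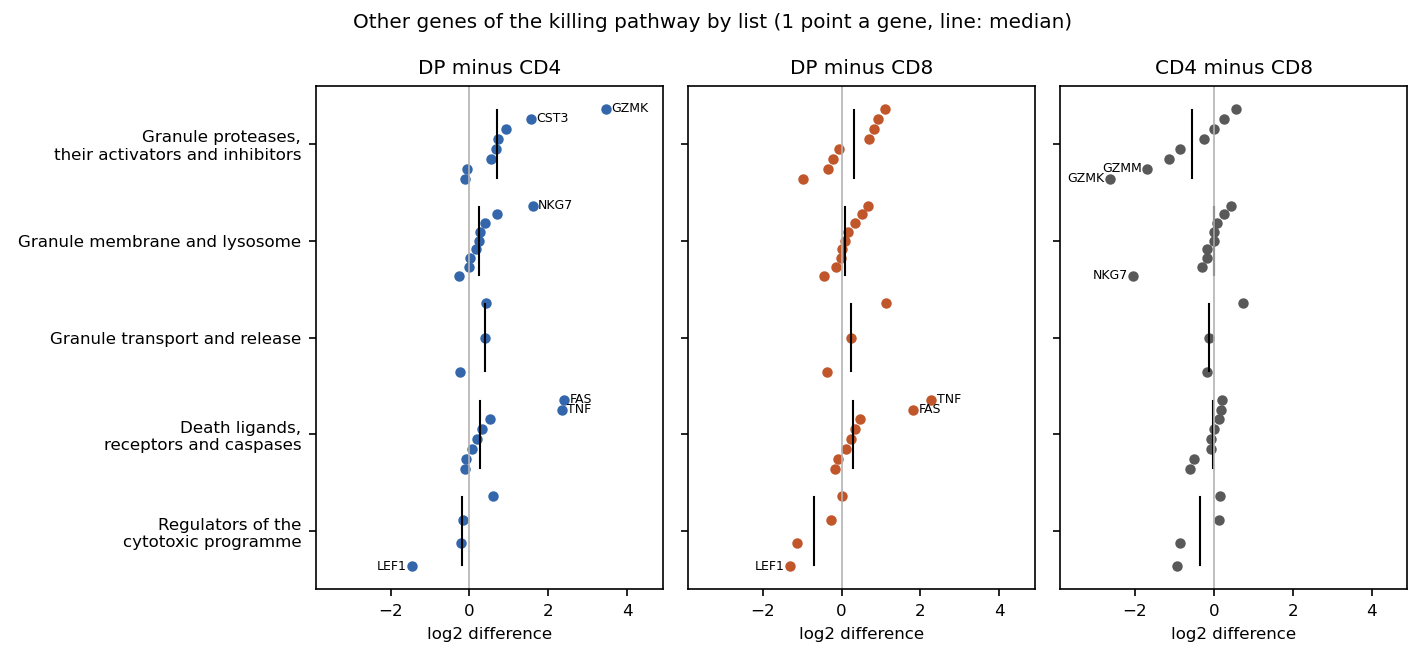
Log2 difference of each tested gene (1 point a gene) in the 5 pathway lists, for the 3 comparisons, with the median of the list as a line and genes beyond 1.2 in size named. No point passed the test. FAS (2.40) and TNF (2.35) lie far to the right in DP minus CD4, as does GZMK, whose value rests on 2 CD4 arrays not well above background.

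Markers of other blood cells that express granzymes or could enter a sort were read beside these values. Of the natural killer cell list 5 of 10 genes were on the array. NCR1 passed background on no array and KLRB1 on 1 array. The summed linear level of the 5 ran from 37.3 to 95.9 in DP, 6.22 to 13.3 in CD4 cells and 24.2 to 55.7 in CD8 cells. Most of this sum was FCGR3A, also found on T cells of effector type, at 5.87 ± 0.78 in DP, 3.06 ± 0.84 in CD4 cells and 5.14 ± 0.76 in CD8 cells (n = 3 each), with DP minus CD4 at 2.81 (SE 0.54, limma adjusted p = 0.0509) and another FCGR3A probe called. FCER1G, a signalling chain of Fc receptors, was highest in CD8 cells in its means, at -0.33 ± 2.17 in DP, -0.27 ± 0.60 in CD4 cells and 2.00 ± 0.20 in CD8 cells (n = 3 each). Its differences of -2.33 for DP minus CD8 (SE 0.82, limma adjusted p = 0.518) and -2.26 for CD4 minus CD8 (SE 0.82, limma adjusted p = 0.737) did not pass. TYROBP, an adaptor of killer cell receptors, had means of -1.25, -1.31 and -0.87 in DP, CD4 and CD8 cells, with no difference over 0.45 in size. The gamma delta T cell list had 1 of 4 genes on the array, CD163L1, which was not well above background on any.

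Among B cell markers, BLNK passed background on no array. CD79A, which carries signals from the antigen receptor of B cells, stood at -0.05 ± 1.27 in DP, 0.17 ± 0.41 in CD4 cells and 3.15 ± 0.66 in CD8 cells (n = 3 each). It was lower in DP than in CD8 cells (log2 -3.20, SE 0.60, limma adjusted p = 0.0452). In CD4 minus CD8, the comparison in which GZMH was called, CD79A gave -2.98 (SE 0.60, limma adjusted p = 0.0561), with every CD4 array below every CD8 array. For 4.24% of all tested probes CD4 cells lay wholly below CD8 cells. Monocyte and granulocyte genes, 6 of 9 on the array, summed to 1.07 to 5.33, 2.54 to 3.83 and 1.02 to 5.36, with S100A8 and S100A9 passing background on no array. LYZ, the lysozyme gene, had the smallest p of that list and gave -1.37 (SE 0.77, limma adjusted p = 0.999) for CD4 minus CD8. The part of the natural killer and B cell signals in the granzyme differences was not tested. Relative to the mean of the CD3 chain genes CD3E and CD3G, GZMH by A_72_P302439 gave 2.50 for DP minus CD4, -1.65 for DP minus CD8 and -4.15 for CD4 minus CD8, close to the values above.

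The genes most like GZMB over the arrays were sought by Pearson's r between its probe A_72_P606603 and 1504 other tested genes over the 9 arrays, as a description. They were MEA1 (r = 0.947), ECHS1 (0.931), SRI (0.921), RPLP0 (0.918), SPRTN (0.910) and JPT1 (0.908). None of these is in the granule lists. RPLP0, a ribosomal protein gene, stood at 7.22 ± 0.47 in DP, 7.28 ± 0.38 in CD4 cells and 7.75 ± 0.74 in CD8 cells (n = 3 each). The points share the arrays and their brightness.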

How the data were processed

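The members, lists and tests were chosen with earlier results of these data known. Per the file headers, scanner files came from Agilent Feature Extraction 11.0.1.1, whose processed signal, the intensity the authors deposited, is linear, background-corrected and not normalized between arrays. The deposited processed table is on a log2 scale, with the same distribution in every column (median 2.60) and a program not given in the sources used here; its CD8 columns 1, 2 and 3 held the values of scanner files 3, 1 and 2. It was an alternative only.

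Levels were log2 of the processed signal minus the 75th percentile of each array. Control spots and outlier spots (1 to 12 an array) were left out, and spots of a probe were averaged. Tested were probes that passed background on all 3 arrays of 1 or more fractions, with 2 or more values in each, which left 16024 of 43603 probes. Probes were named through unversioned accessions of the RefSeq annotation of Sscrofa11.1, which named 6730. Probes with other accessions are unnamed here. No coordinates are given, since the files name no build, and no sequences were used here.

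All 9 arrays entered 1 fit without a block (limma 3.58.1, R 4.3.3, lmFit and eBayes with trend, two-sided, Benjamini-Hochberg over all tested probes, threshold 0.05), which was tested on simulated data. Where nothing says that arrays came from separate sows, p-values measure the spread between arrays. The number of arrays limits the precision. Named were all members and, from each pathway list, called genes or else the gene with the smallest p in each comparison; others are descriptions or were chosen after their values were seen. Alternatives were a replicate or slide block, other scalings, background corrections and filters, and leaving out arrays. Figures used Python 3.11.15 and matplotlib 3.10.9. Promoter motifs and protein features, which had been planned, were not analysed here. Part of the B cell marker list is not reported here.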

Additional observations from a re-analysis of the deposited data

How the results depend on the processing

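Counts of probes called over all tested probes moved more than the members did. Beside 47 (DP against CD4), 50 (DP against CD8) and 70 (CD4 against CD8), the fit on the arrays of 2 fractions gave 29 and 22 for the first pair of comparisons, no filter on dim probes gave 109 and 87, normexp background correction 1, 7 and 6, and only probes detected on all arrays 12, 5 and 12. For DP against CD8 the percentile over probes detected on all arrays gave 22 and 24 with the values as deposited. The slide block, under which DP array 1 carries no weight, gave 2, 2 and 38. With 1 array left out the counts ran from 2 (without DP array 1) to 55, 1 (without DP array 1) to 51 and 31 (without CD8 array 2) to 81. The normexp alternative used the median signal, as chosen after seeing the data.

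The replicate block gave 144, 83 and 110, and 30 and 21 for the comparisons with DP when the CD8 arrays were numbered as in the processed table. The labels do not say that a number marks a shared animal or day. Deviations of same-numbered arrays correlated at r from -0.07 to 0.65, above 0.1 in 7 of 9 pairs, and an array correlated best with its own number in 13 of 18 cases, a hint from the data that falls short of every pair, so the numbers were not taken as pairs. The arrays numbered 2 shared slide 2 and those numbered 3 shared slide 3, so number and slide cannot be told apart in the correlations of those pairs. The arrays numbered 1 lay on different slides, with r of 0.31 (DP and CD4), 0.27 (DP and CD8) and -0.03 (CD4 and CD8). Arrays of different number on the same slide had r of -0.57 (DP 3 and CD4 1) and -0.18 (DP 2 and CD8 1). The other such pairs had -0.11 (CD4 1 and CD8 3) and 0.13 (CD4 2 and CD8 1). What the number stands for was not tested. With the labelled replicate number as a block GZMH by A_72_P478010 (limma adjusted p = 0.0249) and NKG7 (0.0203) passed for CD4 minus CD8, FAS for DP minus CD4 (0.0285), and GZMK for CD4 minus CD8 (0.0297) and DP minus CD4 (0.00808). None of these passed when the CD8 arrays were numbered as in the processed table (limma adjusted p = 0.143, 0.196, 0.130, 0.996 and 0.409, in the same order). GZMK was well above background on 1 CD4 array and 2 CD8 arrays, so both its differences are uncertain in size and in p-value.

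Without the filter on dim probes GZMH passed for DP minus CD4 by A_72_P302439 (adjusted p = 0.0188, range over the settings that kept all arrays 0.0188 to 0.704). Differences near 0 changed sign: LAMP1 for CD4 minus CD8 (-0.012 with normexp, -0.052 with the slide block) and TNF (0.0067 with the percentile over detected probes, 0.21 with the slide block). With 1 array left out LAMP1 ran from -0.85 to 0.24, -0.64 to 0.45 and -0.20 to 0.65, TNF for CD4 minus CD8 from -0.85 to 1.23, LEF1 for it from -0.059 to 0.40, GZMB for DP minus CD8 from -2.52 to 0.74 and -2.25 to 0.63, GZMK for it from -0.13 to 1.80 and GZMM for DP minus CD4 from -0.058 to 1.42. Of 768 recomputed differences of the members, FAS, GZMK, GZMM, LEF1, NKG7 and TNF, 724 kept their direction and side of the threshold or moved by less than 1 SD. Many of these could not change direction. The replicate blocks, the filters and the fit without a variance trend returned the main difference. So did the fit on the arrays of 2 fractions and leaving out an array of the third fraction. Many also started far from the threshold, so the 724 are a count and not a measure of robustness.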

Other observations

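Both GZMB probes had array 2 highest and array 3 lowest in every fraction. The arrays numbered 2 all lay on slide 2 and those numbered 3 all on slide 3, and slides 2 and 3 held CD8 array 1 and CD4 array 1 as well. GZMK likewise had its highest level on array 2 of each fraction (2.55, -0.37 and 1.73 in DP, CD4 and CD8 cells). GZMH had its highest level on array 2 in CD4 and CD8 cells and on array 1 in DP. The 75th percentile of signal on the arrays numbered 2 was 42.5, 15.2 and 24.3 in DP, CD4 and CD8 cells, so these arrays were neither all bright nor all dim. On slide 2 GZMB by A_72_P606603 stood at 3.33 on CD8 array 1 and 7.91 on CD8 array 2. On slide 3 it stood at 1.47 on CD4 array 1 and -0.22 on CD4 array 3. The order by array number was noticed in the values and was not tested. Among the arrays numbered 2 and 3 alone, number and slide cannot be told apart.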
